A study of Mus musculus and Homo sapiens with 10 samples.

Results

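The EphA receptors form 1 class of the Eph receptor tyrosine kinases, and 9 mouse genes of the class, Epha1 to Epha8 and Epha10, were examined for their place at the nuclear lamina. The genes were matched by symbol in RefSeq's gene table for GRCm38.p6, which has the coordinates of mm10, and all 9 were found among 21523 protein-coding genes on chromosomes 1 to 19 and X. For each gene the share of its body inside lamina-associated domains (LADs) and the position of both ends were read from 2 deposited lists of LADs.

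The study set DamID read on Nanopore instruments beside DamID read on Illumina instruments. In DamID a chromatin protein carries Dam, an enzyme of bacteria that methylates the adenine in GATC, so that the DNA the protein touches can be cut out and read. The mouse samples were N2A cells, a neuroblastoma line, and those for mapping LADs carried LaminB1, a protein of the nuclear lamina, fused to Dam. Which of the mouse samples entered each LAD list is not given in the labels. Doxycycline at 2 µg/mL is given for all 10 samples, Dam alone and Wildtype included. By the labels, LaminB1-Dam had 1 Nanopore sample and 2 Illumina samples, Dam alone had 1 sample by each method, and single samples were labelled 10% LaminB1-Dam (Nanopore) and Wildtype; the other 3 of the 10 samples, in human HEK293T cells, carried DamN126A alone or fused to CTCF and were not used here. Each method is represented by 1 consensus list of intervals without scores, so the values below have no replicate error and no sequencing depth behind them that is known, and no test between samples was possible. The lists hold no expression values, so the labelled cell line was not checked by its markers.

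Eph receptors sit in the cell membrane and are switched on by ephrins on the surface of a neighbouring cell. EphA receptors bind mainly ephrin A ligands, which are held in the membrane by a lipid anchor, while EphB receptors bind mainly the membrane-spanning ephrin B ligands. In the nervous system this contact most often makes a growth cone turn away, and graded EphA receptors help to lay out maps such as that of the retina on the midbrain. LADs are long stretches of chromatin that lie against the lamina and in general hold few and little-used genes.

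The class split cleanly. Epha3, Epha4, Epha5, Epha6 and Epha7 lay in LADs of both lists with 100% of the gene body and with both ends inside. Epha1, Epha2, Epha8 and Epha10 had 0% of the body in a LAD of either list and both ends outside. No member was cut by a LAD border. Both ends lay inside LADs for 5 of 9 members in each list, beside 26.9% of all protein-coding genes by Nanopore and 23.5% by Illumina. With at least 50% of the body counted as inside, 5 of 9 members were called in each list, beside 28.9% of all protein-coding genes in the Nanopore list and 25.4% in the Illumina list. The whole body lay in LADs of both lists for 22.8% of all genes, and 68.8% had no base in either. No member changed its call between methods, which by itself says little, since only 4.85% of all genes did.

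**Figure D1:**
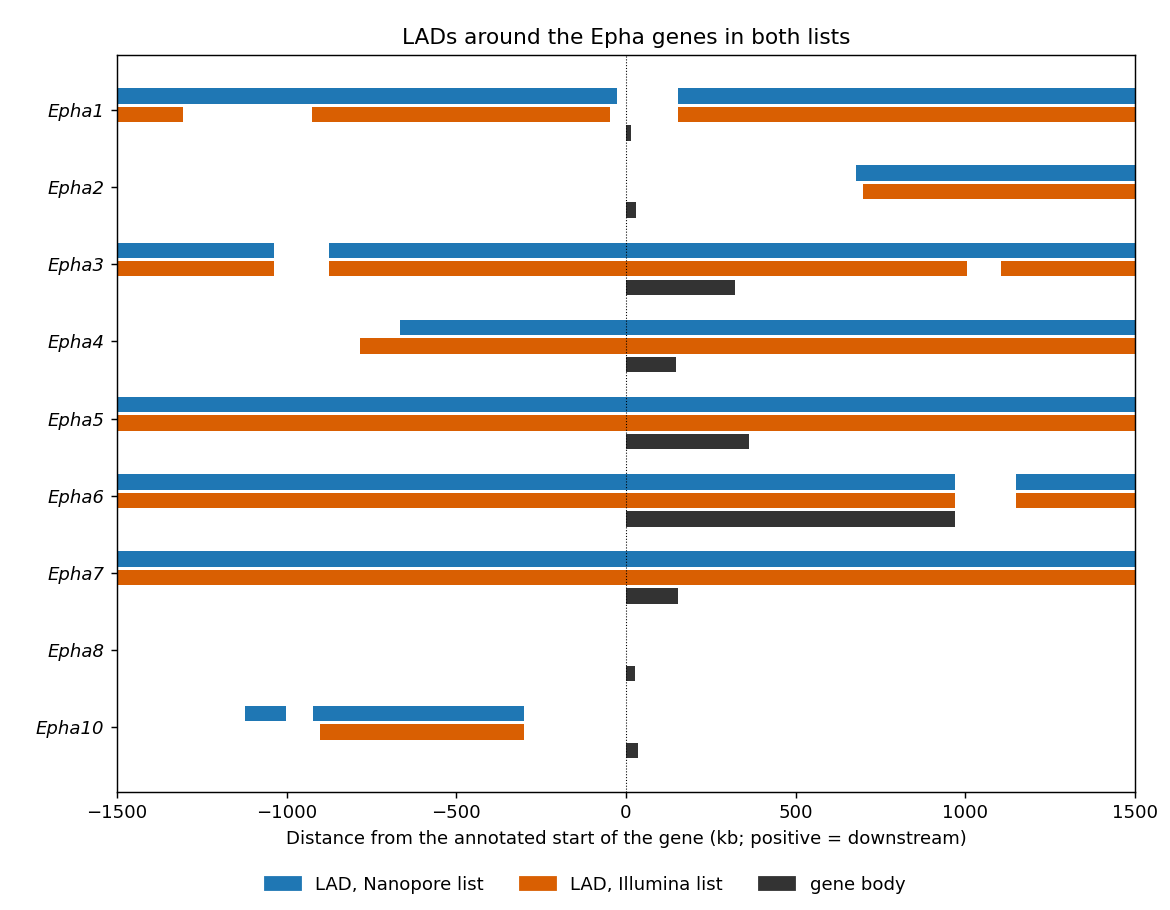
LADs of the Nanopore list (blue) and the Illumina list (orange) around each Epha gene (dark bar, annotated gene body), drawn by distance in kb from the annotated gene start, with positive values downstream. The bodies of Epha3 to Epha7 lie under LADs of both lists over their whole length, Epha6 ends at a border, Epha1 sits in a short gap, and no LAD is within 1500 kb of the start of Epha8.

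The 5 genes in LADs were the 5 longest of the class. Epha4 measured 148 kb, Epha7 154 kb, Epha3 321 kb, Epha5 363 kb and Epha6 969 kb. Outside LADs, Epha1 measured 14.8 kb, Epha8 27.4 kb, Epha2 28.2 kb and Epha10 36.3 kb, so the lengths of the members inside and outside did not overlap. In the whole annotation the share called was highest over 200 kb and was no higher at 50 to 200 kb than under 50 kb. Among other receptor tyrosine kinases, 0 of 20 under 50 kb were called in either list. Of 18 such kinases of 50 to 200 kb, 9 were called by Nanopore and 8 by Illumina. Of protein-coding genes over 200 kb, 55.6% were called in the Nanopore list and 48.9% in the Illumina list, beside 3 of 3 members of that length. Of genes of 50 to 200 kb, 25.8% and 21.9% were called, beside 2 of 2 members. Of genes under 50 kb, 28% and 24.8% were called, beside 0 of 4 members. These are counts over very few members and were not tested.

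Starts of genes were compared first, because the stretch before the start holds the promoter. Promoter windows from RefSeq (GRCm38.p6), which run from 250 bases before to 50 after a transcript's start, were found for all 9 members. That transcript need not have the outermost start of the gene. The windows of Epha5, Epha6 and Epha10 held no base before the outermost annotated start. For Epha6 the window ran from 60605482 to 60605781 on chromosome 16, while the outermost start is 60610911. Promoters in LADs were in general poor in CG dinucleotides, the usual sites of DNA methylation in mammals: the median was 3 CG per 300-base window over 4253 genes with their start in LADs of both lists, with quartiles of 1 and 8. Over 12190 genes with their start in neither list it was 18, with quartiles of 8 and 27. The members inside LADs were richer than most genes there. Epha6 had 15 CG, Epha4 17, Epha3 18, Epha7 28 and Epha5 30, more than 83.9% to 94.7% of the windows that start in LADs of both lists. The members outside spread more widely, with 10 in Epha2, 14 in Epha1, 21 in Epha10 and 56 in Epha8, so members inside and outside overlapped. Gene length moves with this measure: among genes with their start in LADs of both lists the median was 2 CG under 50 kb, 9 at 50 to 200 kb and 14 over 200 kb, with an upper quartile of 21 and 25 in the 2 longer classes. Set beside genes of their own length, Epha3 and Epha6 were between the median and the upper quartile, as was Epha4, and Epha5 and Epha7 were above the upper quartile.

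Stretches of 4 promoters are printed to show this, 3 from genes inside LADs and, for contrast, Epha2 from outside. Epha2 had the fewest CG of the members in the 300-base windows. Each stretch holds the bases of the window that lie before the outermost annotated start of the gene. The stretches are read 5′ to 3′ on the gene's strand, with every CG in capitals. They lie at chr4:28812881-28813065 (plus strand, 20 CG in 185 bases) for Epha7, chr16:63864176-63864425 (minus strand, 16 CG in 250 bases) for Epha3, chr1:77515108-77515338 (minus strand, 14 CG in 231 bases) for Epha4 and chr4:141300971-141301220 (plus strand, 9 CG in 250 bases) for Epha2, all in mm10.
Epha7: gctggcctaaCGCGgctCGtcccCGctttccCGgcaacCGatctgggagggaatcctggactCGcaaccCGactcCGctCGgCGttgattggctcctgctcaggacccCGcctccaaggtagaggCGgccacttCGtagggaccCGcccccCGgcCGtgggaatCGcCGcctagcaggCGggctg
Epha3: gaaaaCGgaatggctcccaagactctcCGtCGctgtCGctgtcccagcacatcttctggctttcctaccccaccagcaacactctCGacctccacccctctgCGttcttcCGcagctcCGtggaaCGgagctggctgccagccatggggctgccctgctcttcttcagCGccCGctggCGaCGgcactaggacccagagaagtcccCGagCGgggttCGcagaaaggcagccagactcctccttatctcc
Epha4: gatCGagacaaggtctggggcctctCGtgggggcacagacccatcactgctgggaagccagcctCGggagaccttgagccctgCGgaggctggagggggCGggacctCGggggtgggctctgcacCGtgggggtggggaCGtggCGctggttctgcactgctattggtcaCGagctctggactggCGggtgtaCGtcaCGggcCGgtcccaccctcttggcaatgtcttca
Epha2: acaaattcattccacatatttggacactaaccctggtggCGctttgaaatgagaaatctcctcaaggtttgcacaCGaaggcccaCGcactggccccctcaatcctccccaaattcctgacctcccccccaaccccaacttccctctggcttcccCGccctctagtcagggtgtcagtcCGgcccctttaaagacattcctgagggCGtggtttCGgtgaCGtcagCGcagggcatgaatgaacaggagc
Epha7 carried 10.8 CG per 100 bases of its stretch, Epha3 6.4, Epha4 6.06 and Epha2 3.6. The printed stretches do not stand for members inside against members outside. Among those not printed, both outside LADs, Epha1 held 4 CG in 204 bases and Epha8 37 CG in 207 bases. The Dam site GATC, which reads the same on both strands, was in the 300-base windows of 5 of 9 members: Epha4, Epha6 and Epha7 inside LADs and Epha1 and Epha10 outside. This was close to the 46.4% of all 17274 promoter windows that hold it. Borders in both lists lie on a grid of 20 kb, far wider than these windows. A link between GATC at the start and the calls was not tested.

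**Figure D2:**
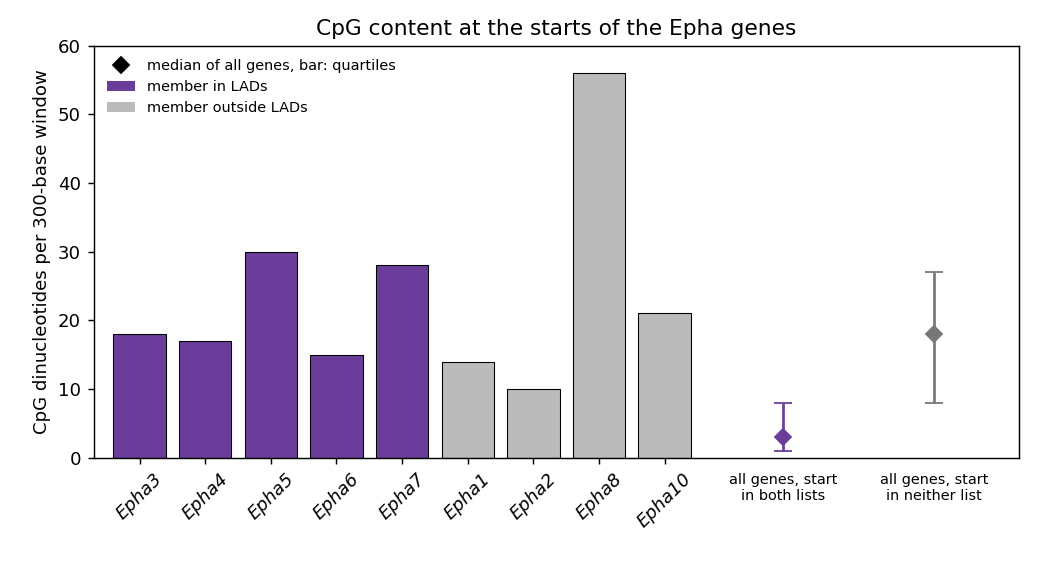
CpG dinucleotides (CG) in the 300-base window at a transcript's start of each Epha gene (bars, purple for genes in LADs of both lists and grey for those outside). Diamonds with bars give the median and quartiles over protein-coding genes with a promoter window. The 5 members inside LADs reach 15 to 30, above the upper quartile of 8 for genes that start in LADs of both lists. Among such genes that quartile is 21 at 50 to 200 kb and 25 over 200 kb (not drawn). In their own length class only Epha5 and Epha7 exceed it. Epha8 outside LADs has the most CG, 56.

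Among the members inside, Epha5 had its start farthest from a border in the Nanopore list and Epha7 in the Illumina list. Epha5, a receptor of forebrain and retinal neurons (chromosome 5, 84054761 to 84417818, minus strand, RefSeq gene 13839), had its start 4102 kb and its end 4465 kb from the nearest border of the Nanopore list. In the Illumina list the distances were 1602 kb and 1965 kb. The comparison took genes with a promoter window whose start lies in a LAD, 4954 by Nanopore and 4383 by Illumina. Of these, 99.5% by Nanopore and 93.9% by Illumina had their start nearer to a border, and the median distance was 306 kb and 268 kb. The Nanopore LAD around it, from 77680001 to 88520000, was 10.84 Mb wide and ranked 6 of 1174 by width. The Illumina LAD ran from 77860001 to 86020000, 8.16 Mb, and ranked 10 of 1149. They differed by 180 kb at the lower border and by 2500 kb at the upper one, which left Epha5 untouched.

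Epha7 (chromosome 4, 28813066 to 28967503, plus strand, gene 13841), which acts in the growing cortex, had its start 3067 kb and its end 2912 kb from a border by Nanopore, and 3107 kb and 2952 kb by Illumina. Here both lists gave nearly the same domain, 24720001 to 31880000 by Nanopore and 24640001 to 31920000 by Illumina, and Illumina was the wider by 80 kb below and 40 kb above. Epha4 (chromosome 1, 77367182 to 77515107, minus strand, gene 13838) encodes a receptor that keeps spinal and corticospinal axons on their side of the midline and that also binds ephrin B ligands. Its start was 665 kb and its end 813 kb from a border by Nanopore, and 785 kb and 933 kb by Illumina. The LAD measured 2.46 Mb by Nanopore and 2.62 Mb by Illumina, which again reached further on both sides, by 40 kb and 120 kb. Over the whole of chromosomes 1 to 19 and X it was the Nanopore list that covered more, 1480 Mb against 1353 Mb.

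Epha6 and Epha3 lie on the same chromosome and shared a LAD by one method only. Epha6 (chromosome 16, 59641433 to 60610911, minus strand, gene 13840) and Epha3 (63543532 to 63864175, minus strand, gene 13837), a receptor studied in retinal axons and in the heart, are 2.93 Mb apart. The Nanopore LAD from 59640001 to 64740000, 5.1 Mb wide, held both. The Illumina list had the same outer borders but a break of 100 kb from 62760001 to 62860000, which put Epha6 in a LAD of 3.12 Mb and Epha3 in one of 1.88 Mb. Arl13b, a GTPase gene of the primary cilium, and Stx19 lay wholly in the break, at 100% of the body by Nanopore and 0% by Illumina; both were picked after their values were seen. The break was 2149 kb from Epha6 and 684 kb from Epha3, and the bodies of both receptors stayed at 100% in each list.

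Epha6 was the only member with an end at a LAD border. Its start was 971 kb inside in both lists, while its end was 1.43 kb (1432 bases) from the border, which both lists placed at 59640001. Borders lie on the 20 kb grid, so this distance is below what the lists resolve. The next gene beyond the border, Arl6, another GTPase gene of cilia, ended 2.02 kb from Epha6 and had 0% of its body in LADs of either list. When every LAD was narrowed by 20 kb on each side, Epha6 kept 98.1% of its body in LADs in each list, and its end was then outside.

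**Figure D3:**
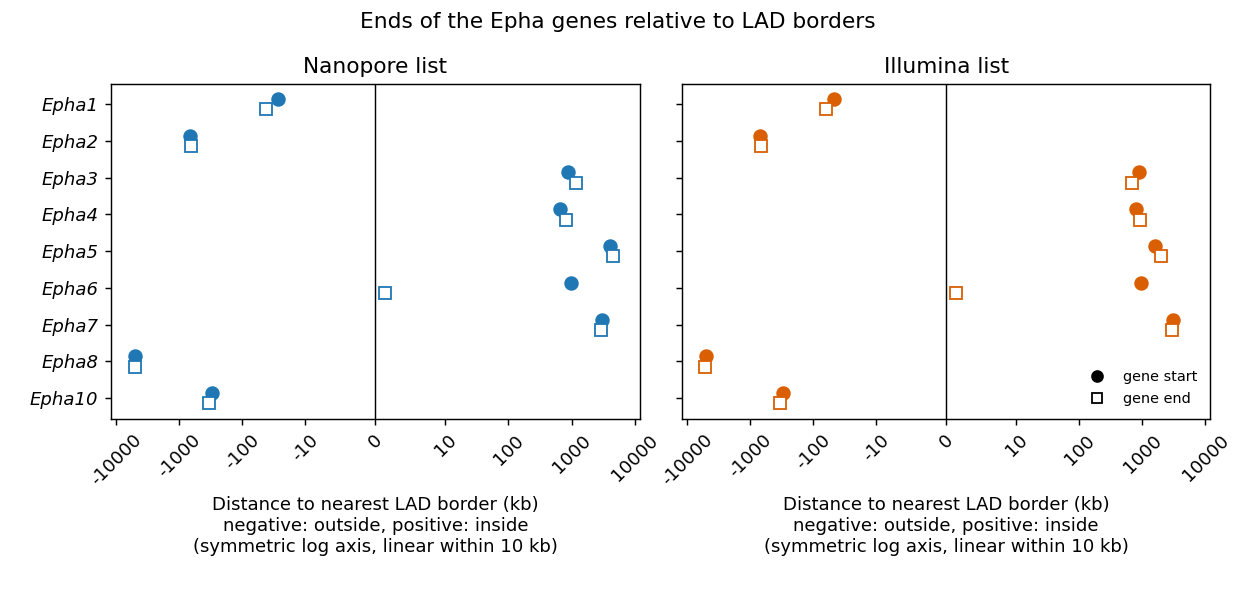
Distance in kb from the start (filled circles) and end (open squares) of each Epha gene to the nearest LAD border in the Nanopore list (left) and the Illumina list (right), on a symmetric log axis with positive values inside LADs. Epha5 and Epha7 lie deepest, the end of Epha6 is at 1.43 kb in both lists, and Epha1 is the nearest of the members outside.

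The members outside ranged from the edge of a LAD to megabases away. Epha1 (chromosome 6, 42358487 to 42373314, minus strand, gene 13835), the receptor first found in the family and expressed mainly in epithelia, was closest. Its start was 26.7 kb from the nearest LAD by Nanopore and 46.7 kb by Illumina, and its end 41.5 kb and 61.5 kb. Genes with a promoter window and without a base in LADs numbered 12012 by Nanopore and 12639 by Illumina. Only 4.05% and 6.84% of them had their start nearer to a LAD, and the median distance was 516 kb and 619 kb. Epha1 sat in a gap between LADs of 180 kb by Nanopore (42220001 to 42400000) and 200 kb by Illumina, and LADs filled 97.3% and 88% of the 1000 kb upstream of it and 86.2% of the 1000 kb downstream in both lists. The gap was crowded, with 7 protein-coding genes touching it by Nanopore and 9 by Illumina. Zyx, which encodes zyxin of focal adhesions, overlaps the end of Epha1 and had 0% in both lists, and the bitter taste receptor gene Tas2r143, 26.9 kb upstream, had 100% by Nanopore and 0% by Illumina. The first gene beyond Epha1 thus changed its call between methods and Epha1 did not. Tas2r143, from 42400238 to 42401119, lies between the Nanopore border at 42400001 and the Illumina border at 42420001. These borders are a single step of the 20 kb grid apart, the smallest difference the lists can show.

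Epha10 (chromosome 4, 124881530 to 124917801, plus strand, gene 230735), held to lack kinase activity, had its start 302 kb from a LAD in both lists. Epha2 (chromosome 4, 141301221 to 141329384, plus strand, gene 13836), a receptor of epithelia and of many tumours, was 651 kb from a LAD at its end and 679 kb at its start by Nanopore, and 671 kb and 699 kb by Illumina. Epha8 (chromosome 4, 136929419 to 136956859, minus strand, gene 13842), known from axons of the midbrain, was 5023 kb away by Nanopore and 5043 kb by Illumina. Of genes with a promoter window and without a base in LADs, 99.4% by Nanopore and 99.3% by Illumina had their start nearer to a LAD than Epha8. Epha2 and Epha8 shared a single stretch without LADs, from 131760001 to 141980000 by Nanopore (10.22 Mb) and 20 kb longer by Illumina, which 204 protein-coding genes touched, 19.96 per Mb by Nanopore. Epha10 lay in a stretch of 2.88 Mb by Nanopore and 2.96 Mb by Illumina that 52 genes touched. Epha2, Epha8 and Epha10 outside LADs and Epha7 inside are therefore on chromosome 4, with 95.9 Mb between Epha7 and Epha10.

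Members inside LADs bordered wide stretches without protein-coding genes on at least 1 side, and members outside did not. The farther of the nearest protein-coding neighbours on either side, leaving out genes that overlap the member, was 614 kb away for Epha3, 1594 kb for Epha5, 1808 kb for Epha4, 2122 kb for Epha6 and 2996 kb for Epha7. Over all 5324 genes called in both lists the median was 62.5 kb, and 88.99% to 99.2% of them had a smaller gap than these members. The members outside had 0.663 kb for Epha10, 30.6 kb for Epha8, 33.8 kb for Epha1 and 43.3 kb for Epha2, where the median over 15156 genes called in neither list was 27.03 kb. Epha10 lies between Maneal, 0.591 kb before its start, and Cdca8, the gene of the mitotic protein borealin, 0.663 kb beyond its end, both at 0% in each list.

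Of the 10 nearest neighbours of the members inside, 7 were called in LADs by Nanopore and 6 by Illumina. Of the 8 neighbours of the members outside, 1 and 0 were called. The shares of all protein-coding genes were 28.9% by Nanopore and 25.4% by Illumina, and the difference was not tested. Tecrl and, overlapping the start of Epha5, Gm42163 had 100% in both lists; Manea, below Epha7, and Csnka2ip, above Epha3, had the same. Pax3, a transcription factor gene of the neural crest 586 kb upstream of Epha4, was at 82.1% by Nanopore and 100% by Illumina. Pros1, the anticoagulant protein S gene 614 kb downstream of Epha3, was at 100% and 92.4%. Nsun3, above Epha6, was at 100% and 50.6%, and Cenpc1, a centromere gene above Epha5, at 100% and 14.8%. Slc4a3 below Epha4, Arl6 below Epha6 and the kinase gene Map3k7 above Epha7 were at 0% in both lists. On the outside, Fam131b by Epha1, Arhgef19 and Fam131c by Epha2 and C1qa and Zbtb40 by Epha8 were at 0% in both lists.

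The rest of the Eph system was set beside the class with lists of genes written out in full. None of 5 ephrin A ligand genes was in a LAD: Efna1, Efna3 and Efna4, side by side on chromosome 3, were 1382 to 1439 kb from the nearest border, and Efna2 659 kb by Nanopore. Efna5, the ligand of retinal maps, measured 278 kb and still had 0% in both lists, 183 kb from a LAD by Nanopore and 463 kb by Illumina. In the A class 0 of 5 ligand genes thus stand beside 5 of 9 receptor genes. Of all protein-coding genes 28.9% were called by Nanopore and 25.4% by Illumina. Of the ligand genes 4 were under 50 kb, a length at which 0 of 4 receptor genes of the class were called. The difference between ligand and receptor genes was not tested. None of 3 ephrin B ligand genes was called. Efnb2 touched a LAD by Illumina only, with 6.29% of its body.

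Of 5 EphB receptor genes, 2 were called, in both lists, beside 28.9% of all protein-coding genes by Nanopore and 25.4% by Illumina. Ephb1 (chromosome 9, 433 kb) lay with 100% in a LAD, 101540001 to 102580000 by Nanopore and 101720001 to 102540000 by Illumina. Ephb6, held to lack kinase activity, measured 16.7 kb and had 100% in both lists, and it was the only Eph receptor gene under 50 kb inside a LAD. It lay 738 kb from Epha1, in the LAD from 40500001 to 42220000 that bounds the gap around Epha1 in both lists. Ephb2 was the converse, with 189 kb and 0% in both lists. It lay 93.1 kb from Epha8, 4888 kb from the nearest border, in the same stretch without LADs. Ephb3 and Ephb4, of 18.7 kb and 24.4 kb, had 0% in both lists. So the order by length that held within the A class was broken in the B class by Ephb2 and Ephb6. Among the ligands no gene was called, the long Efna5 included, so they had no such order.

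Of 30 genes for signalling partners of Eph receptors, 4 (13.3%) were called by Nanopore and 3 (10%) by Illumina. The shares of all protein-coding genes were 28.9% and 25.4%. Anks1b, an adaptor gene, had 100% by Nanopore and 98.8% by Illumina, and Rasa1, a RasGAP gene, and Ptpro, a phosphatase gene, had 100% in both. Acp1, a small phosphatase gene of 18.3 kb, had 100% by Nanopore and 0% by Illumina. The exchange factor genes Ngef (ephexin), Tiam1 and Kalrn and the chimaerin gene Chn1, through which Eph receptors act on the growth cone, had 0% in both lists although Kalrn measures 604 kb. Vav3 had 30.6% by Nanopore and 0% by Illumina.

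Other receptor tyrosine kinase genes gave 12 of 44 called by Nanopore and 11 by Illumina, near the 28.9% and 25.4% of all genes. Of those under 50 kb, 0 of 20 were called in either list, as with 0 of 4 in the A class. Of 18 kinases of 50 to 200 kb, 9 and 8 were called, and of 6 over 200 kb, 3 in each list. Ntrk2 (327 kb), Ror1 (349 kb) and Erbb4 (1077 kb) were the long ones inside, at 100% in both lists. Alk (736 kb), altered in some neuroblastomas, Igf1r (281 kb) and Ntrk3 (401 kb) were the long ones outside, at 0% in both. Flt3 was the kinase called by Nanopore only, with 99.3% against 0%.

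Likeness to each member was measured as the mean absolute difference over 6 values, the body share and the state of start and end in 2 lists, with ties broken by the nearest length. Of the other kinases 43 could be scored, since Styk1 has no strand in the tables used and only 1 end inside by Illumina. For each member inside LADs 9 kinases tied at a difference of 0, and for each outside 31 did. The nearest in length were Ntrk2 for Epha3, Ros1 for Epha4 and Epha7, Ror1 for Epha5, Erbb4 for Epha6, Fgfr3 for Epha1, Csf1r for Epha2 and Epha8, and Aatk for Epha10. With so many ties, the choice among them rests on length alone.

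**Figure D4:**
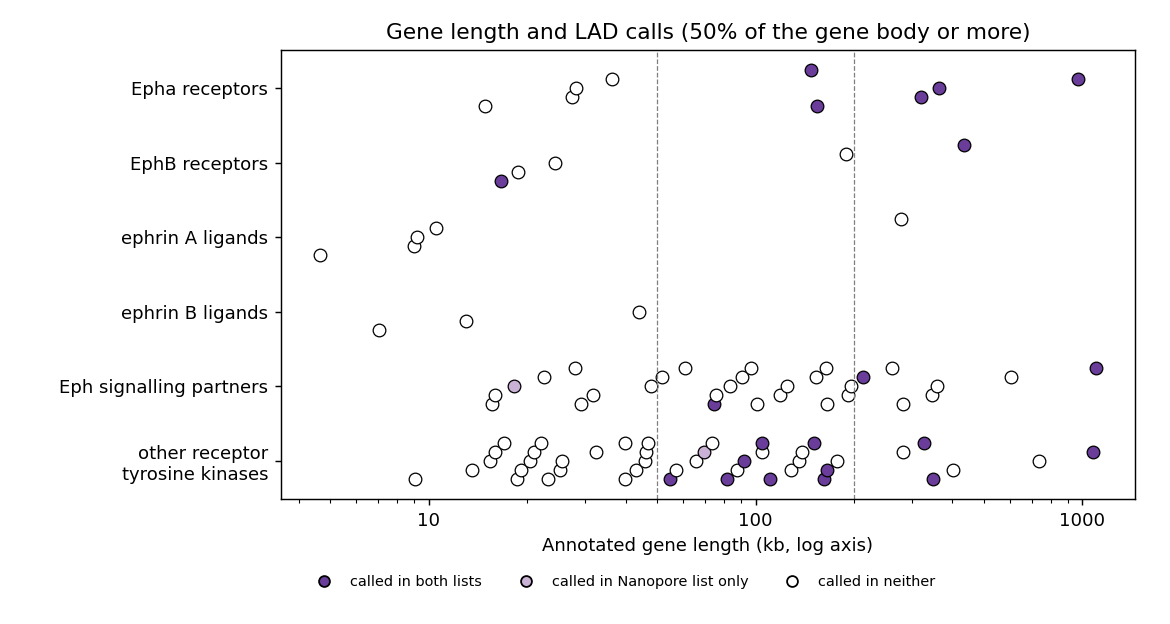
Annotated gene length in kb (log axis) for the Epha genes and 5 lists of related genes, 1 circle a gene, filled dark where at least 50% of the body was in LADs of both lists, light for the Nanopore list only and white for neither; circles are offset vertically for legibility and dashed lines mark 50 and 200 kb. The 5 Epha genes from 148 kb upward are dark and the 4 up to 36.3 kb white, while Ephb6 at 16.7 kb is dark and Efna5 at 278 kb is white.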

How the data were processed

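The values used were coordinates from 2 deposited interval lists, consensus LADs by Nanopore (1210 intervals, 1174 on chromosomes 1 to 19 and X) and by Illumina (1190 and 1149), without any score or p-value. The authors' deposited coordinates had all borders on a 20 kb grid on these chromosomes. Per the submitters' processing notes, tools were bedtools, deepTools, minimap2 and SAMtools, with hg38 and mm10 as builds; no roles or versions are given. Not given in the sources used here are the LAD caller, its thresholds and the samples behind each list; the 10% LaminB1-Dam sample may or may not be among them. Depth and its precision are unknown. A list of human CTCF peaks was not used.

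Protein-coding genes came from RefSeq on GRCm38.p6, leaving out 108 listed below 3 Mb. Strand came from the RefSeq promoter table, which has 17274 of the 21523 genes, the first window per gene; starts and ends are the outermost annotated ones. A gene was called at 50% or more of its body in LADs. No test was run. Interval measures were checked on simulated data, with 200 of 200 genes exact. The members and lists were chosen with earlier results of these data known. Named genes are the members, their nearest protein-coding neighbours, genes of the written lists and the kinase most like each member; values had been seen when genes in the break of chromosome 16 and those of the closing section were picked. Alternatives changed the share that counts, gene placement, narrow LADs, merging and borders. Python 3.11.15, numpy 2.4.6, pandas 2.3.3 and matplotlib 3.10.9 were used.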

Additional observations from a re-analysis of the deposited data

How the results depend on the processing

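The counts of Epha genes in LADs, 5 by Nanopore and 5 by Illumina, and the 0 members whose call differed between lists were the same under each of 8 alternatives: 90% of the body, any overlap, the gene midpoint, both ends inside, LADs under 200 kb left out, LADs at most 40 kb apart merged, and borders widened or narrowed by 20 kb. The changed call rules could not alter a member's call, since every member lay wholly inside or wholly outside LADs. Widening by 20 kb could not reach the nearest outside member, Epha1, 26.7 kb from a LAD by Nanopore. The gap around Epha1, 180 kb by Nanopore, was too wide to merge. No member lay in a LAD narrower than 1.88 Mb. The unchanged counts under these settings followed from the positions and say little about robustness. Over the same alternatives the share of all protein-coding genes called was 26.9% to 31% in the Nanopore list and 23.5% to 27.3% in the Illumina list. Of 72 member shares recomputed with changed LADs, 2 moved, those of Epha6 in either list, to 98.1% with narrowed borders. No paired analysis was possible because each method has a single consensus list with no values per replicate, and no replicate could be left out for the same reason. The lists give neither depth nor confidence per LAD, and positions are resolved to 20 kb.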

Other observations

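The 2.5 Mb by which the Nanopore LAD around Epha5 reached beyond the Illumina one (chromosome 5, 86020001 to 88520000) was not empty in the Illumina list. After a break of 180 kb, a second Illumina LAD covered the rest, 92.8% of the stretch in all. The stretch held 40 protein-coding genes wholly inside it, all at 100% by Nanopore, and 37 of them were called by Illumina. They included the casein genes Csn1s1, Csn2 and Csn3 of milk, the enamel genes Amtn, Ambn and Enam, the sulfotransferase gene Sult1e1 and glucuronosyltransferase genes such as Ugt2b1, each at 100% in both lists. Stap1, Uba6, an activating enzyme gene for ubiquitin, and Gnrhr, the gene of the gonadotropin-releasing hormone receptor, had 100% by Nanopore and 0% by Illumina. As a result 45 protein-coding genes had at least 50% of the body in the Nanopore LAD that holds Epha5, and 4 in the Illumina one.

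The Nanopore LAD that holds both Epha3 and Epha6 had 98.04% of its bases in Illumina LADs, although the single Illumina LAD was 0.369 times as wide at Epha3 and 0.612 times at Epha6. The one that holds Epha5 had 96.7%, with a single Illumina LAD 0.753 times as wide. At Epha4 and Epha7 neither list had a break: the Nanopore LAD lay wholly within 1 Illumina LAD and covered 93.9% and 98.4% of it.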
